A study of Homo sapiens with 15 samples.

Results

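The 40 genes described here, among them CDC20, AURKA, AURKB and PLK1, act in G2 and mitosis and were listed by gene symbol, with earlier results of these data known. For each gene the probe set with the highest mean signal over the 15 arrays was taken. All 40 were measured and passed the filter on low signals, on every array, among 12868 genes tested and 19775 genes named by a probe set. The list leaves out the other mitotic kinesins, but 1 member, CENPE, itself encodes a kinesin motor of the kinetochore. Expression was measured on Affymetrix arrays in IMR32, an established human neuroblastoma cell line, after transfection with MSX1, a homeodomain transcription factor, in a form inducible by doxycycline. Every group carried this construct. Each of 5 groups had 3 arrays. One was taken at t = 0; induced cells, given doxycycline, were taken at t = 8, t = 24 and t = 48; the controls, kept free of doxycycline, were taken at t = 48. The unit of time, the promoter of the construct and the number of clones are not stated in the labels. The labels do not state whether replicates came from independent cultures. The p-values therefore cover the spread among arrays of a group, which may be technical. Cells given doxycycline without the construct were not analysed here, so doxycycline and MSX1 cannot be told apart, nor were control cells at t = 8 or t = 24.

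Cells enter mitosis when cyclin B and CDK1 become active, a step started by CDC25 phosphatases and by the kinases PLK1 and Aurora A. Chromosomes are then condensed, caught by spindle microtubules at their kinetochores, and held until the spindle checkpoint lets CDC20 switch on the anaphase-promoting complex, a ubiquitin ligase that destroys cyclin B and securin. Most of these genes are transcribed together late in the cell cycle, driven by B-MYB, FOXM1 and the MuvB complex, and are held down in resting cells by the DREAM complex, so their RNA is widely used as a measure of proliferation. In RNA from whole cultures, fewer cells in G2 or mitosis and less RNA in each such cell cannot be told apart.

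Values are MAS5 signals, a brightness per probe set, and every array had the same trimmed mean (100.01). MSX1 itself read 116, 122 and 95.5 at t = 0, 184, 158 and 140.1 at t = 8, 142, 172 and 182 at t = 24 and 96.9, 67.7 and 84.9 at t = 48 in induced cells. Control readings of MSX1 were 46.5, 50.2 and 55.5. At t = 48 it was higher in induced than in control cells (log2 difference 0.65, SE 0.15, adjusted p = 0.0163), without overlap, and the control arrays lay below all those of t = 0. The MSX1 mean in induced cells at t = 48 (83.2) was also below that at t = 0 (111). Of 10 neuroblastoma markers 8 passed the filter, among them PHOX2A, GATA3 and MYCN, while TH, which makes the first catecholamine intermediate, read at most 11.9. At t = 48 the signals of 7 fibroblast markers summed to 787 to 985 on induced and 613 to 680 on control arrays; the sums were 1140 to 1490 at t = 24 and 474 to 610 at t = 0, chiefly through COL1A1 and LUM, while COL1A2 and DCN were near background (at most 25.1 and 26.6). One control probe set for 18S rRNA was brighter on induced arrays at t = 48, from 150.2 to 172.9, than on control arrays, from 76.7 to 94.9; a second overlapped, with 178.1, 169.9 and 82 on induced and 69.1, 91.3 and 70.3 on control arrays. Hybridisation controls were weak on induced t = 24 replicate 1 and induced t = 48 replicate 3. Fits without those arrays are given below. The part of the other differences in the results below was not tested.

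Most G2 and mitosis genes fell in induced cells between t = 8 and t = 24 and were still lower than at t = 0 by t = 48, and none passed in either direction in control cells. Differences are given as log2 differences, of log2(signal + 5.16), which understates the change of dim genes, and a gene was called where its adjusted p was under 0.05. At t = 48, 22 of the 40 were lower in induced than in control cells (55 percent) and 0 were higher, against 3.29 percent and 5.31 percent of all genes tested; at an unadjusted p under 0.05, 32 were lower and 0 higher. The median difference was -0.37, with all 40 below 0, against a median of -0.01 over all genes, of which 52.1 percent were below 0. CDC20 differed most, by 1.63-fold. In 34 of 40 the induced and control arrays did not overlap, all lower, against 15.4 percent of all genes. Over all genes 38.3 percent of the calls were lower, and 53.4 percent when arrays were centred on the median of the genes tested, with 23 members lower. The 22 calls became 14 without the arrays with weak hybridisation controls, 11 without induced t = 48 replicate 3 or control t = 48 replicate 3, 14 without control t = 48 replicate 2, and 6 when only the compared groups were fitted. They became 7 with arrays centred on the median of all probe sets and 13 with no filter on low signals.

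**Figure D1:**
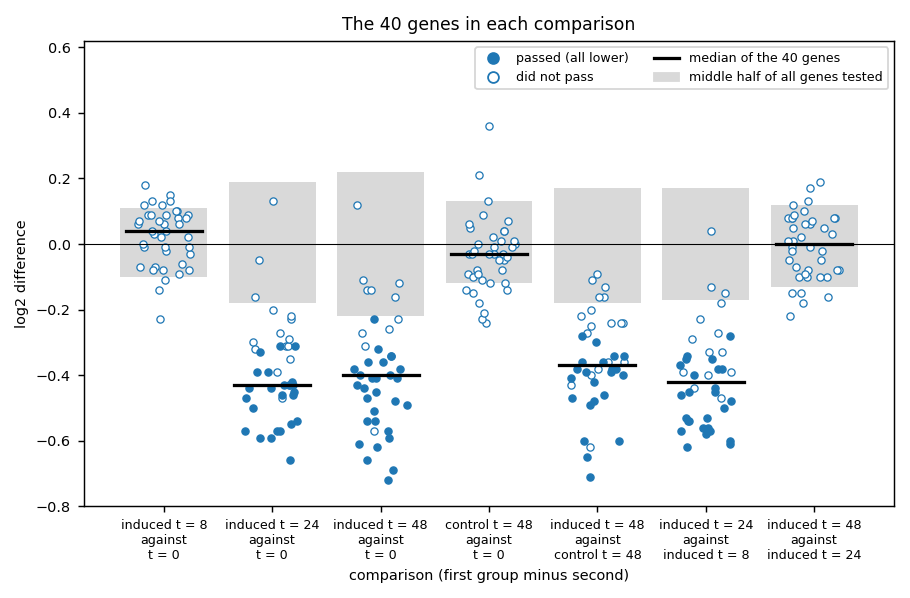
Log2 difference (vertical axis) of each of the 40 G2 and mitosis genes in 7 comparisons (horizontal axis), filled where the adjusted p was under 0.05, with the members' median as a line and the quartiles of all genes tested as a grey box. Members lie around 0 at t = 8 and in control cells, with medians of 0.04 and -0.03, and mostly below the grey box at t = 24 and t = 48, with medians of -0.43 and -0.40 against t = 0.

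Array by array the genes separated the same way, which is another view of the same values and not separate support. The median deviation of the 40 genes from their own means over the 15 arrays was between -0.31 and -0.18 on the 6 arrays of induced cells at t = 24 and t = 48. On the 9 arrays of t = 0, induced t = 8 and control cells it was between 0.10 and 0.23, so the 2 sets of arrays did not overlap. The lowest value was on induced t = 24 replicate 1 and the next lowest, -0.28, on induced t = 48 replicate 3, which are the arrays with weak hybridisation controls; the other 4 induced arrays lay between -0.20 and -0.18.

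**Figure D2:**
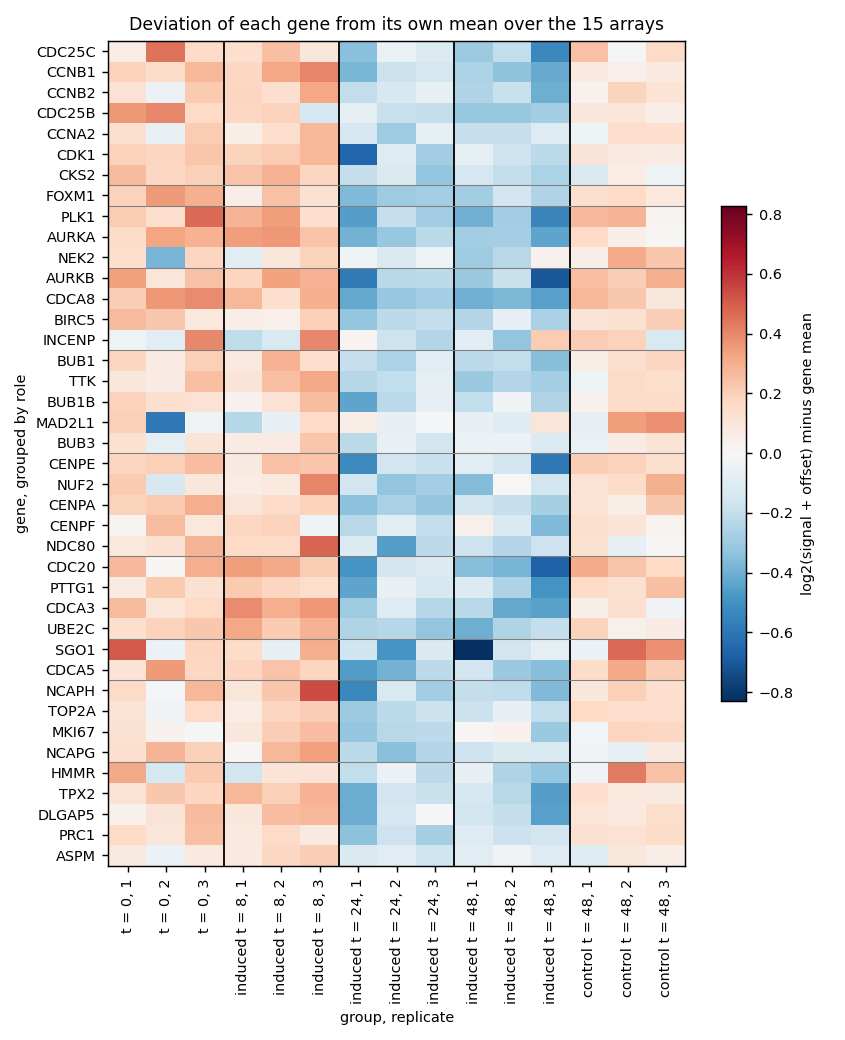
Deviation of each gene (rows, grouped by role) from its own mean over the 15 arrays (columns, by group and replicate), in log2 units; blue is lower and red higher. The 6 columns of induced t = 24 and t = 48 are mostly blue and the other 9 mostly red, with the rows of NEK2, INCENP and the MAD2L1 probe set used as exceptions.

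The sequence before the starts of these genes was not used to choose them. The motifs searched are known for late cell cycle genes. Their shares therefore describe the class of gene chosen and are not support for the differences on these arrays. Promoters of many late cell cycle genes hold a CHR element, to which MuvB complexes bind, and CCAAT boxes, which bind NF-Y. RefSeq windows (build GRCh38.p14) from 250 bases before to 50 bases after an annotated start were found for 33 of the 40 genes. These windows were searched on both strands for CHR (TTTGAA or TTCGAA), the CCAAT box (CCAAT) and E2F sites (TTTCCCGC, TTTCGCGC, TTTGCCGC or TTTGGCGC). The last 150 bases before the start are printed for CDC20, CDCA8 and PLK1, the members with the largest falls at t = 48 among those with an upstream CHR match, and for ASPM, the member that differed least. Capitals mark the matches on either strand. A CCAAT box on the opposite strand is read here as ATTGG. The CHR of ASPM likewise is on the opposite strand and is read as TTCAAA, while in CDCA8 the CHR and a reverse CCAAT box share 1 letter.
CDC20, chr1:43358831-43358980, plus strand: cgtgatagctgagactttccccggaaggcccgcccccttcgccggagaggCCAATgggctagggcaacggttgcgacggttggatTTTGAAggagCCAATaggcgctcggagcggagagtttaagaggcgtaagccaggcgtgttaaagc
CDCA8, chr1:37692366-37692515, plus strand: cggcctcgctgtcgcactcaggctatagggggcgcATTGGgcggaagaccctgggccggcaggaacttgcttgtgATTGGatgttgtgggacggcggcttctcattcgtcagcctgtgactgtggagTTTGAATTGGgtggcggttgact
PLK1, chr16:23678739-23678888, plus strand: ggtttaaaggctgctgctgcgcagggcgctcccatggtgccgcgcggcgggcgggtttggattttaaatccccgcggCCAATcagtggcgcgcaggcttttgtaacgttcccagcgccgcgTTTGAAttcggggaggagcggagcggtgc
ASPM, chr1:197146670-197146819, minus strand: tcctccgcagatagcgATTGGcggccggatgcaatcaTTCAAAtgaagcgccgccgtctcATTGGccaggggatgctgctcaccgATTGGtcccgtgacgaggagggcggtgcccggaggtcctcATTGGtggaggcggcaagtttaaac

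A CHR match was found in 26 of the 33 members (78.8 percent), against 15.6 percent of the 10418 genes tested on the arrays that have a window, and lay within 50 bases of the start in 23 (69.7 percent, against 4.98 percent). A CCAAT box was found in 27 (81.8 percent, against 43.2 percent), and both in 21 (63.6 percent, against 6.47 percent). By window rather than by gene, CHR was in 66.7 percent of 42 member windows and in 16.4 percent of all 35116 windows in the table. E2F sites were found in 3 members (9.09 percent, against 6.59 percent). The 101 other listed cell cycle genes with a window lay between: 51.5 percent held a CHR match, 33.7 percent one within 50 bases of the start, 57.4 percent a CCAAT box and 29.7 percent both CHR and CCAAT. E2F sites were in 17.8 percent of them, more than in the members. These shares were not tested against each other. Within the set, the median difference at t = 48 was -0.35 in the 26 members with a CHR match and -0.40 in the 7 without, among them AURKB and CCNB1. Members with no window, AURKA, UBE2C, BIRC5, TTK, BUB3, FOXM1 and TPX2, are in neither group. All of these but BUB3 were called lower at t = 48 against control. ASPM, which differed least, holds a CHR match and 4 CCAAT boxes in the stretch printed. These are matches of letters, not measured sites, and no match in a window says only that the letters are not there.

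**Figure D3:**
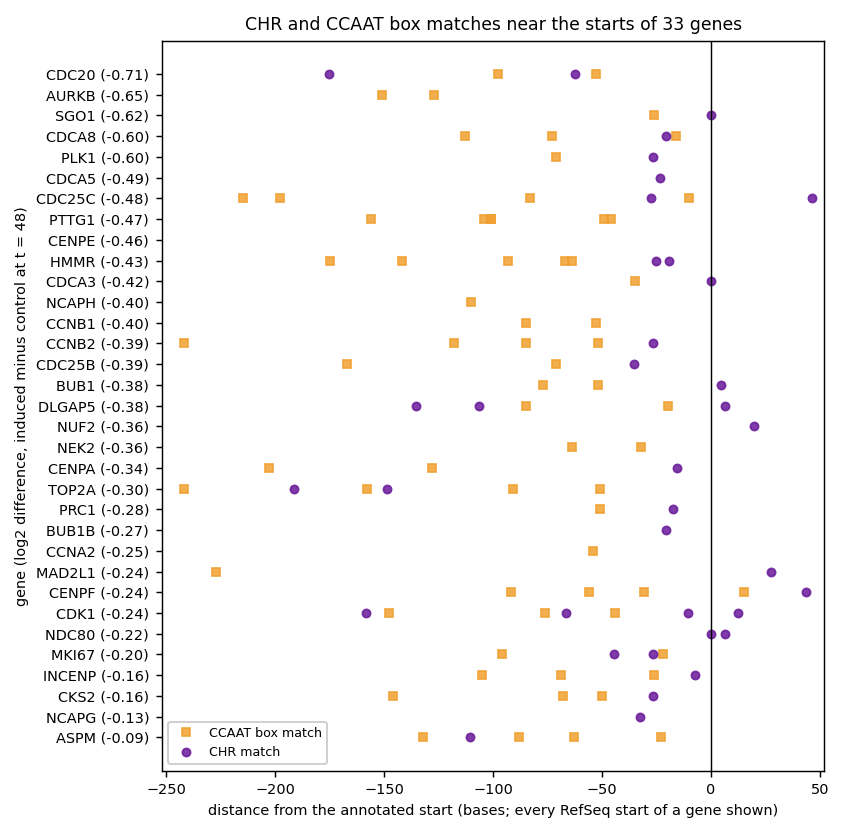
Distance in bases from the annotated start (horizontal axis) of CHR matches (circles) and CCAAT box matches (squares) in the 33 genes with a RefSeq window, ordered by their log2 difference between induced and control cells at t = 48 (in brackets). A CHR match lies within 50 bases of the start in 23 of the 26 genes that hold one; CDC20 (-0.71), at the top, ASPM (-0.09), at the bottom, and TOP2A are the exceptions.

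Of the 7 genes of cyclins, CDK1 and its activators, 4 fell at t = 48 against control. CCNB1, which encodes cyclin B1, the partner of CDK1 in mitosis, read 1689.7, 1650.1 and 1796 at t = 0, 1672, 1854 and 1960.5 at t = 8, 1137, 1309 and 1339 at t = 24 and 1236, 1178 and 1110.5 at t = 48 in induced cells. Control readings of CCNB1 were 1567, 1528 and 1568. All 6 arrays of induced t = 24 and t = 48 were below all 9 others, and cyclin B1 RNA was 1.32-fold lower than in control (log2 difference -0.40, SE 0.08, adjusted p = 0.0112). CCNB2, encoding cyclin B2, read 920.1, 963 and 826 in induced and 1124, 1245 and 1185 in control cells at t = 48 (log2 difference -0.39, SE 0.09, adjusted p = 0.0196). CDC25C, a phosphatase that activates CDK1, read 182, 195 and 154 against 267, 223 and 252 (log2 difference -0.48, SE 0.12, adjusted p = 0.0335). Its relative CDC25B, which acts earlier in G2, read 321, 321 and 327 against 428, 430 and 416 (log2 difference -0.39, SE 0.09, adjusted p = 0.0249). In each of these 4 genes the induced and control arrays did not overlap.

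CDK1, CKS2 and CCNA2 did not pass against control at t = 48, although their groups did not overlap there. CDK1, the kinase of mitosis, read 3359, 3328 and 3446 at t = 0, 3333, 3405 and 3550.4 at t = 8, 1861, 2724 and 2404 at t = 24 and 2787, 2604 and 2519 at t = 48 in induced cells. Control readings of CDK1 were 3164, 3109 and 3082. It fell against t = 0 both at t = 24 (-0.55, adjusted p = 0.00712) and at t = 48 (-0.36, adjusted p = 0.0421), and gave -0.24 against control (adjusted p = 0.208); its lowest reading was on induced t = 24 replicate 1. CKS2, a small subunit that binds CDK1, read 2367, 2228 and 2260.2 at t = 0, 1719, 1814 and 1582 and 1795, 1724 and 1645 in induced cells at t = 24 and t = 48. Its control readings were 1815, 2059 and 1916. In the control cells CKS2 was already below its t = 0 range without passing (-0.24, adjusted p = 0.208), so its fall against t = 0 (-0.41, adjusted p = 0.00327) stood beside a difference of -0.16 against control (adjusted p = 0.219). CCNA2, encoding cyclin A2 of S phase and G2, read 575, 575 and 608 in induced and 639.9, 728 and 722 in control cells at t = 48 (log2 difference -0.25, 95 percent interval -0.45 to -0.04, adjusted p = 0.14). At t = 0 it read 718, 629 and 761, at t = 8 681, 728 and 795 and at t = 24 594, 534 and 619, and this probe set did not pass in any of the 7 comparisons. The other CCNA2 probe set gave -0.94 at t = 48 against t = 0 (adjusted p = 0.0465 over all probe sets) and -0.80 against control (adjusted p = 0.122).

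FOXM1, the forkhead factor that drives many of these genes, read 528, 592 and 567 at t = 0, 479.9, 546 and 504 at t = 8, 358, 376 and 379 at t = 24 and 377, 413 and 388 at t = 48 in induced cells. Control readings of FOXM1 were 507, 516 and 491. Its groups at t = 24 and t = 48 lay wholly below the others (log2 difference -0.36, SE 0.07, adjusted p = 0.0099 against control; -0.59, adjusted p = 0.000229, for t = 24 against t = 0).

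Among the mitotic kinases, PLK1 and AURKA fell at t = 48 and NEK2 did not pass. PLK1, the Polo-like kinase needed for mitotic entry and spindle formation, read 637, 609.9 and 762 at t = 0, 670.5, 702 and 606 at t = 8, 400.2, 480.2 and 450.1 at t = 24 and 416, 449 and 374 at t = 48 in induced cells. Control readings of PLK1 were 664, 669.9 and 558. The lowest control array of PLK1 stood above the highest induced array (log2 difference -0.60, SE 0.11, adjusted p = 0.0064), a 1.52-fold difference. AURKA, the Aurora kinase of centrosomes and spindle poles, read 635, 638 and 570.3 against 869, 804 and 781 (log2 difference -0.41, SE 0.08, adjusted p = 0.00811). NEK2, a kinase that parts the centrosomes, read 593, 410 and 607 at t = 0, and 436, 456 and 550 in induced and 554, 664 and 627 in control cells at t = 48 (-0.36, adjusted p = 0.16). Its t = 0 arrays spanned most of the range of all groups.

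The chromosomal passenger complex corrects faulty attachments of chromosomes to the spindle, and 3 of its 4 subunits fell. AURKB, its Aurora B kinase, read 758, 642 and 710.3 at t = 0, 679.8, 755 and 733 at t = 8, 397, 509.7 and 515 at t = 24 and 484, 527 and 366 at t = 48 in induced cells. Control readings of AURKB were 712, 689.8 and 739.8 (log2 difference -0.65, SE 0.13, adjusted p = 0.0105). The other AURKB probe set, with a mean signal of 157, did not pass against control (-0.29, adjusted p = 0.242 over all probe sets). It was lower at t = 24 against t = 0 (-0.61, adjusted p = 0.0174). CDCA8, which encodes borealin, read 470.3, 525 and 536 at t = 0, 496, 451 and 501 at t = 8, 304, 328 and 334 at t = 24 and 308, 314 and 297 at t = 48 in induced cells. Control readings of CDCA8 were 495, 477 and 435. Borealin had the lowest adjusted p of the 40 at t = 48 (log2 difference -0.60, SE 0.08, adjusted p = 0.000498), and its 6 late induced arrays were tightly grouped, from 297.1 to 334.5. BIRC5, encoding survivin, read 1541, 1738 and 1509.9 against 1959.6, 1992 and 2104 (log2 difference -0.34, SE 0.08, adjusted p = 0.0231). INCENP, the scaffold of the complex, was dim, at 42.1 to 72.8 over all arrays, and gave -0.16 with a 95 percent interval of -0.57 to 0.25 (adjusted p = 0.655), an interval that holds the differences of BIRC5 and CDC25B as well as 0.

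**Figure D4:**
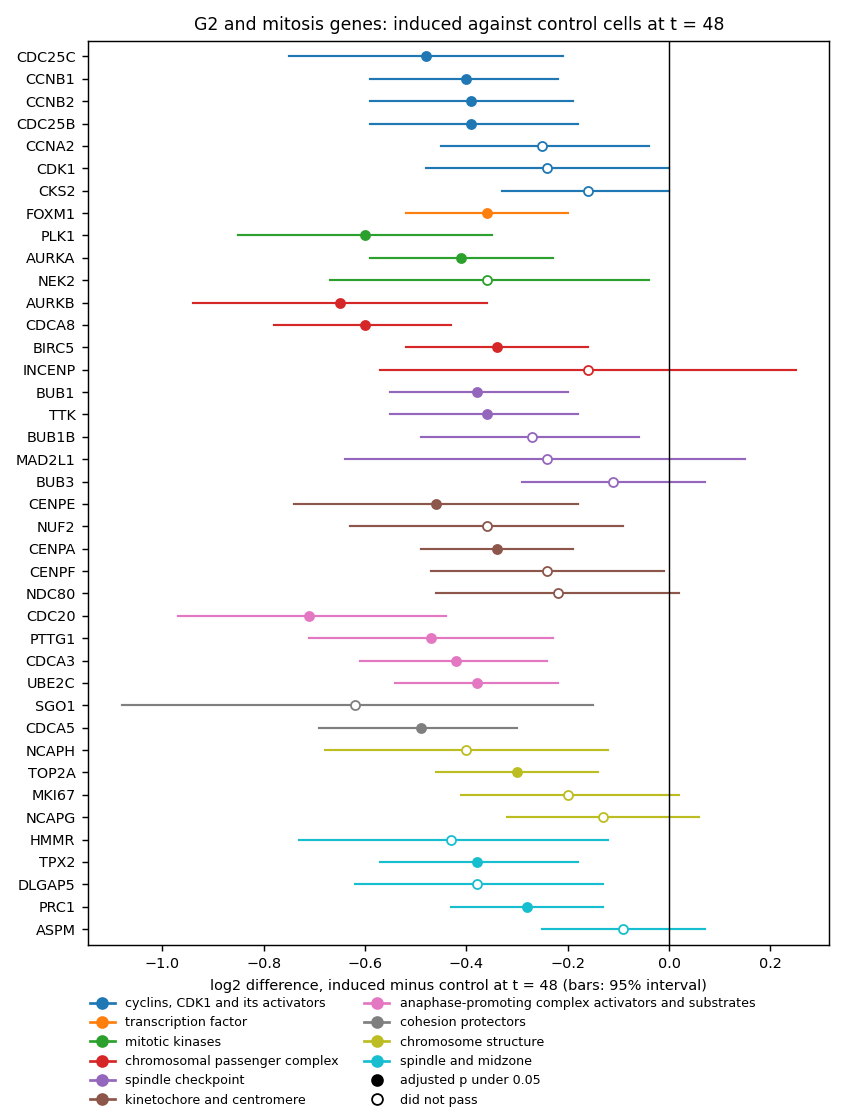
Log2 difference between induced and control cells at t = 48 (horizontal axis, with 95% intervals as bars) for each of the 40 genes, grouped by role and filled where the adjusted p was under 0.05. All 40 points lie left of 0, from CDC20 at -0.71 to ASPM at -0.09, and the 22 filled points are spread over every role.

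The role of CDC20 is to activate the anaphase-promoting complex, and this group of 4 genes was the largest in which every member fell at t = 48. CDC20 read 1128, 944 and 1158 at t = 0, 1195, 1165 and 1083 at t = 8, 667, 843 and 867 at t = 24 and 734, 716 and 587 at t = 48 in induced cells. Control readings of CDC20 were 1163, 1105 and 1053. Its difference from control was the largest of the 40 (log2 difference -0.71, SE 0.12, adjusted p = 0.00328), and the control arrays stood well above the induced ones. UBE2C, the ubiquitin-conjugating enzyme of the complex, read 1428, 1590.5 and 1653 against 2151, 1956 and 1986 (log2 difference -0.38, SE 0.07, adjusted p = 0.00734). PTTG1, encoding securin, which blocks separase until anaphase, read 2409, 2182 and 1848 against 2929, 2852 and 3096 (log2 difference -0.47, SE 0.11, adjusted p = 0.0207). CDCA3, which promotes mitotic entry and is itself destroyed through the complex, read 411, 358 and 351.1 against 499.8, 533 and 472 (log2 difference -0.42, SE 0.09, adjusted p = 0.00911).

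Spindle checkpoint genes were split. BUB1, a kinase of the checkpoint at kinetochores, read 466, 471 and 424 in induced and 560.3, 594 and 614 in control cells at t = 48 (log2 difference -0.38, SE 0.08, adjusted p = 0.0134). TTK, also called MPS1, the kinase that starts checkpoint signalling, read 365, 381 and 371 against 439.9, 505 and 499 (log2 difference -0.36, SE 0.09, adjusted p = 0.02). The remaining 3 encode subunits of the mitotic checkpoint complex that holds CDC20, and none of these passed at t = 48 against control: BUB1B gave -0.27 (adjusted p = 0.121), MAD2L1 -0.24 (adjusted p = 0.452) and BUB3 -0.11 (adjusted p = 0.449). BUB1B, which encodes BUBR1, fell at t = 24 against t = 0 (-0.39, adjusted p = 0.0269). MAD2L1 read 2267, 1309 and 1936 at t = 0, 2048, 1878 and 1961 and 1879.9, 1837 and 2117 in induced cells at t = 24 and t = 48. Its control readings were 1882, 2512 and 2569.6. MAD2L1 on this probe set gave 0.13 and 0.12 at t = 24 and t = 48 against t = 0, neither passing. The next brightest MAD2L1 probe set went the other way and passed at both times (-0.44, adjusted p = 0.044, and -0.42, adjusted p = 0.0349, over all 30676 probe sets tested), and the third passed at t = 24 (-0.44, adjusted p = 0.0325). Against control these 2 gave -0.41 and -0.36 and did not pass. BUB3, the partner of BUB1 and BUBR1, read 2309, 2300.5 and 2205 against 2292, 2499 and 2575, with overlap.

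**Figure D5:**
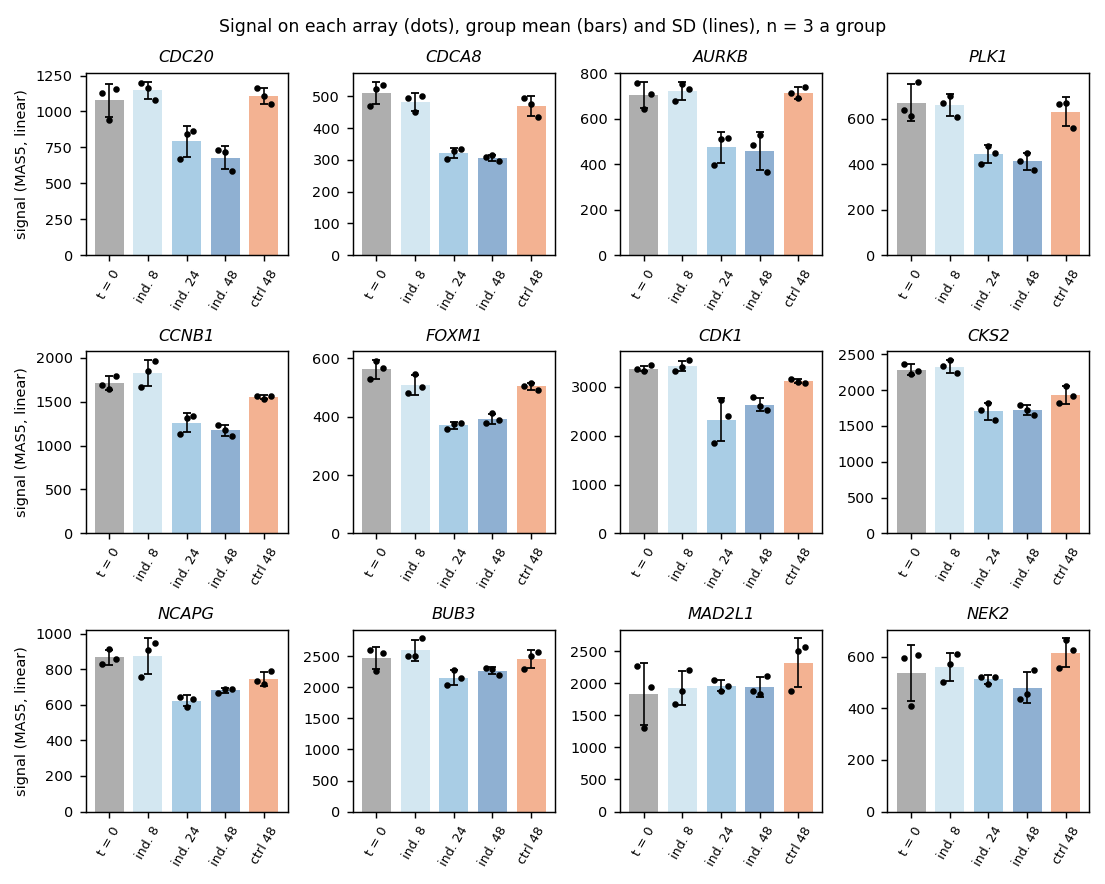
MAS5 signal on a linear scale (vertical axes, from 0) for 12 members, with each array as a dot, the group mean as a bar and the SD as a line (n = 3), for t = 0, induced t = 8, 24 and 48, and control t = 48. CDC20, CDCA8, AURKB, PLK1, CCNB1 and FOXM1 are lower on all induced t = 24 and t = 48 arrays than on the others, whereas those of MAD2L1 and NEK2 overlap with the arrays at t = 0.

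Kinetochore and centromere genes had 2 of 5 members lower at t = 48. CENPA, the histone H3 variant that marks centromeres, read 216, 210 and 198 in induced and 262, 249.9 and 283 in control cells (log2 difference -0.34, SE 0.07, adjusted p = 0.0101), and its fall against t = 0 at t = 24 was among the most clear of the set (-0.54, adjusted p = 0.000308). CENPE, the kinesin that moves chromosomes to the spindle equator, read 400.5, 383 and 281 against 492, 488 and 469 and passed narrowly (log2 difference -0.46, SE 0.13, adjusted p = 0.0476). NDC80 and NUF2, partners in the complex that binds microtubules, gave -0.22 (adjusted p = 0.255) and -0.36 (adjusted p = 0.0949). NDC80 fell at t = 24 against t = 0 (-0.43, adjusted p = 0.0271), and NUF2 did not pass there (-0.31, adjusted p = 0.131). CENPF, a large outer kinetochore protein of G2, gave -0.24 (adjusted p = 0.201).

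Of the 2 genes that protect sister chromatid cohesion, CDCA5 fell and SGO1 did not pass. CDCA5, encoding sororin, read 452, 408 and 394 in induced and 562, 629 and 582 in control cells at t = 48 (log2 difference -0.49, SE 0.09, adjusted p = 0.00522). SGO1, encoding shugoshin of the centromere, read 63.7, 105 and 111 against 113, 164 and 154; induced t = 48 replicate 1 was far below the other 2, and its difference of -0.62 with an SE of 0.21 did not pass (adjusted p = 0.102).

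Of 4 chromosome structure genes, TOP2A fell against control. It encodes the topoisomerase that untangles sister chromatids, and read 1412, 1522 and 1381 in induced and 1792, 1753 and 1763 in control cells at t = 48 (log2 difference -0.30, SE 0.08, adjusted p = 0.0283). That fall was not seen on its next brightest probe set, which gave -0.03 (adjusted p = 0.942). NCAPG and NCAPH, subunits of condensin I, gave -0.13 (adjusted p = 0.409) and -0.40 (adjusted p = 0.0777) against control, and both had fallen by t = 24 relative to t = 8 (-0.48, adjusted p = 0.00822; -0.60, adjusted p = 0.0173). NCAPG read 827, 912 and 859.5 at t = 0, 646, 590 and 634 at t = 24 and 667, 689 and 688 at t = 48 in induced cells. Control readings of NCAPG were 735, 714 and 789, which were themselves below the t = 0 arrays. MKI67, which encodes the Ki-67 antigen used to stain dividing cells, read 579, 543 and 523 at t = 0, 564, 610.4 and 632 at t = 8, 423, 449.5 and 454 at t = 24 and 533, 542 and 426 at t = 48 in induced cells. Control readings of MKI67 were 520.3, 598 and 597. Ki-67 RNA was lower at t = 24 than at t = 8 (-0.44, adjusted p = 0.0226) and gave -0.20 against control at t = 48, with overlap (adjusted p = 0.255).

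Spindle and midzone genes had 2 of 5 members lower at t = 48. TPX2, which activates Aurora A on the spindle, read 1176, 1108 and 946 in induced and 1431, 1380.5 and 1366 in control cells (log2 difference -0.38, SE 0.09, adjusted p = 0.0254). PRC1, which bundles microtubules of the midzone, read 1453, 1381 and 1409.6 against 1711, 1699 and 1736 (log2 difference -0.28, SE 0.07, adjusted p = 0.0258). DLGAP5 (-0.38, adjusted p = 0.0607), which stabilises microtubules near chromosomes, and HMMR (-0.43, adjusted p = 0.089), a spindle assembly protein, had groups that did not overlap and did not pass. ASPM, a protein of spindle poles, read 1140.4, 1196 and 1131 against 1138, 1299 and 1269, with overlap (-0.09, 95 percent interval -0.25 to 0.07, adjusted p = 0.472).

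Over time, the members' RNA fell between t = 8 and t = 24. At t = 8 against t = 0, 0 of 40 members were lower and 0 higher by limma, against 0.995 percent and 1.1 percent of all genes, and at an unadjusted p under 0.05 1 was lower and 0 higher. Differences there ran from -0.23 for CDC25B to 0.18 for CDCA3, with a median of 0.04. From t = 8 to t = 24, 26 of 40 were lower (65 percent, against 2.84 percent of all genes) and 0 higher (3.46 percent; 0 also at an unadjusted p under 0.05), with a median of -0.42 against -0.01 over all genes. AURKA led by adjusted p (-0.62, adjusted p = 0.00108), from 987, 994 and 916 at t = 8 to 589, 622 and 663 at t = 24. UBE2C followed (-0.54, adjusted p = 0.00147), from 2365, 2199.7 and 2310.5 to 1591, 1612 and 1510.4, with all 3 later arrays far below the earlier ones. The 26 calls became 15 without induced t = 24 replicate 1, 16 without induced t = 8 replicate 2, 17 without induced t = 8 replicate 3, 0 when only these groups were fitted and 5 with arrays centred on the median of all probe sets. Counts of all genes called in these fits are not given here. In the last 2 fits the members' median minus that of all genes was -0.41, as in the main fit. Of all genes called, 45.1 percent were lower, and 66.9 percent with arrays centred on the genes tested.

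Against t = 0, 25 members were lower at t = 24 (62.5 percent, against 4.87 percent of all genes) and 28 at t = 48 (70 percent, against 8.2 percent), and 0 were higher at either time (5.96 and 9.93 percent of all genes; 0 members also at an unadjusted p under 0.05). Of these, 24 were lower at both times, BUB1B at t = 24 and CCNB2, CDC25C, PTTG1 and DLGAP5 at t = 48. The 25 calls at t = 24 became 16 without t = 0 replicate 3, the array on which the first 18S rRNA control read 646.5. When only the compared groups were fitted the counts were 6 and 14, and with arrays centred on the median of all probe sets 8 and 15. Counts of all genes called in these fits are not given here. Of all genes called, 45 percent were lower at t = 24 and 45.2 percent at t = 48, and 63.1 and 61.2 percent with arrays centred on the genes tested. These comparisons share their t = 0 arrays. From t = 24 to t = 48, 0 members were lower or higher by limma (1.62 and 2.42 percent of all genes; 0 members at an unadjusted p under 0.05), and differences ran from -0.22 for CDC20 to 0.19 for CDK1, with a median of 0.

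In control cells 0 members passed in either direction between t = 0 and t = 48 by limma (0.365 percent of all genes lower and 0.482 percent higher), and at an unadjusted p under 0.05 4 were lower and 0 higher. The median was -0.03. CKS2 (-0.24) and CDC25B (-0.23) were lowest and MAD2L1 (0.36, adjusted p = 0.498) highest, the last with t = 0 arrays spread from 1309 to 2267.

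Across the 4 comparisons in which members were called, 17 of the 40 were lower in every one on the probe set used: CCNB1, FOXM1, PLK1, AURKA, AURKB, BIRC5, CDCA8, BUB1, TTK, CENPA, CDC20, UBE2C, CDCA3, CDCA5, TOP2A, TPX2 and PRC1. At most 2.84 percent of all genes can be lower in all 4, the share lower from t = 8 to t = 24. On the next brightest probe set, CCNB1 (-0.17, adjusted p = 0.46), TOP2A (-0.23, adjusted p = 0.551) and BUB1 (-0.50, adjusted p = 0.161) did not pass at t = 24 against t = 0. There AURKA (-0.54), AURKB (-0.61), BIRC5 (-0.60) and CDCA3 (-0.55) did pass. From t = 8 to t = 24 those of BUB1 (-0.55), CCNB1 (-0.29), TOP2A (-0.53) and AURKB (-0.55) did not pass. Against control those of BUB1 (-0.59), CCNB1 (-0.41) and TOP2A (-0.03) did not pass either. That of AURKB did not pass against control (-0.29, adjusted p = 0.242), with p adjusted over all probe sets here. By that stricter adjustment some of the probe sets used also missed the threshold. These were CDC20 (0.0591) and TTK (0.0704) at t = 24 against t = 0, and BIRC5 (0.0682) and BUB1 (0.0616) from t = 8 to t = 24. Against control they were PRC1 (0.0592) and TOP2A (0.0593). In none of the 4 did CCNA2, NEK2, INCENP, BUB3, MAD2L1, NUF2, CENPF, SGO1 or HMMR pass on the probe set used. On another probe set CCNA2, MAD2L1, BUB3 (-0.48, adjusted p = 0.00985), SGO1 (-0.65, adjusted p = 0.0211) and HMMR (-0.44, adjusted p = 0.0147) were lower at t = 48 against t = 0, with p adjusted over all probe sets. The BUB3 probe sets with mean signals of 1050 and 591 gave -0.05 and 0.03 at t = 24 against t = 0. Against control at t = 48 these gave -0.03 and 0.04, and neither was called in these comparisons. Dimmer BUB3 probe sets (17.9 and 17.8) gave -0.33 and -0.26 at t = 24 against t = 0, also not called. No probe set of NEK2, INCENP, NUF2 or CENPF that passed the filter was called in these 4 comparisons. CDK1, CKS2, BUB1B, NDC80, NCAPG, NCAPH, MKI67 and ASPM fell from t = 8 to t = 24 without passing against control at t = 48, and CDC25B, CDC25C, CENPE and PTTG1 did the reverse. These comparisons share arrays, so the counts are not separate support.

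Other probe sets of the members measure the same RNA on the same arrays. Of 36 such probe sets that passed the filter, for 19 of the genes, 33 gave values below 0 at t = 48 against control, with a median of -0.33, and 4 passed, all lower: those of AURKA (-0.32), BIRC5 (-0.50), CDCA3 (-0.52) and HMMR (-0.44, adjusted p = 0.0257 over all probe sets). The 3 above 0 were of BIRC5 (0.12), BUB3 (0.04) and TOP2A (0.08), and did not pass. Over all genes tested, with 1 probe set each, 52.1 percent were below 0 and 3.29 percent were called lower. These shares are not given here over all probe sets. Dim probe sets of AURKA, BUB1, BUB3 and CDK1, with mean signals from 17.8 to 23.5, lay near the array medians of 18.1 to 22.6. Their values, all below 0, are therefore close to background.

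Other genes of G2 and mitosis, 124 on lists by role of which 119 were tested, are given for comparison. At t = 48 against control 21 were lower and 0 higher (3.29 and 5.31 percent of all genes), with a median of -0.22 and 101 of 119 below 0. In the kinetochore list 7 of 30 fell, led by CENPH (-0.50) and SPC25 (-0.48), a subunit of the NDC80 complex. Among 13 regulators of CDK1 and mitotic entry, 4 fell, led by CDKN3 (-0.49) and the phosphatase gene CDC25A (-0.46), and with them WEE1 (-0.34), whose kinase inhibits CDK1. Spindle, centrosome and cytokinesis genes fell in 6 of 23 cases, with PIMREG (-0.60) and PSRC1 (-0.58) lowest among those past the threshold. Cohesin and condensin genes fell in 3 of 18, with ESCO2 (-0.46), a cohesin acetyltransferase, and the condensin gene NCAPD2 (-0.45) lowest. In the anaphase-promoting complex list 1 of 15 fell, ESPL1 (-0.42), which encodes separase. For B-MYB, MuvB and DREAM genes 0 of 11 passed at t = 48 against control by limma. Against t = 0, 2 of the 11 fell both at t = 24 and at t = 48 (4.87 and 8.2 percent of all genes). These were TFDP1 and MYBL2, which encodes B-MYB (-0.47 at t = 24, adjusted p = 0.00412). Of 9 genes of the nuclear lamina and chromatin of dividing cells 0 passed at t = 48 against control, with a median of -0.17. In this list 1 gene was lower at t = 48 against t = 0 (8.2 percent of all genes) and 1 from t = 8 to t = 24 (2.84 percent).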

How the data were processed

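Expression was measured on Affymetrix arrays, 15 in all, in 5 groups of 3 taken from the labels. The deposited values are intensities, made by the authors; the submitters' processing notes name MAS5 and GCOS, and versions and genome build are not given in the sources used here. On every array the mean after trimming 2 percent of values at each end was 100.01. No read depth applies to arrays, and their number limits the precision. Probe sets were named by the platform annotation: of 54675, 41091 had 1 gene symbol, 1801 several and 11721 were unnamed here, and symbols of 41037 were found in RefSeq (GRCh38.p14).

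From these intensities log2(signal + 5.16) was computed, with the mean lower quartile of the arrays as offset and no further scaling. Genes at or above the array median on at least 3 arrays were kept, with the probe set of highest mean signal per gene (12868 genes). One limma model over all 5 groups gave 7 comparisons, with Benjamini-Hochberg adjustment over all genes and a threshold of 0.05. R 4.3.3, limma 3.58.1, Python 3.11.15, pandas 2.3.3 and matplotlib 3.10.9 were used, and the scripts were tested on simulated data. Replicate numbers did not pair the arrays: same-numbered deviations correlated between -0.28 and 0.12. Members, lists and tests were chosen with earlier results of these data known. All members are named, and from each list of other genes the 2 largest differences past the threshold against control at t = 48; WEE1, MYBL2, TFDP1 and the markers shown were named after their values were seen. Alternatives were other offsets, scalings, filters, probe set choices, a variance trend, fits on fewer arrays and a replicate block; centring on the genes tested was chosen after seeing the data.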

Additional observations from a re-analysis of the deposited data

How the results depend on the processing

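No member called lower against control at t = 48 changed sign under any of the 19 alternatives run for that comparison. Counts of members called lower moved most with the arrays and scaling used. Against control at t = 48, 22 became 7 with arrays centred on the median of all probe sets, 13 with no filter, 6 with only the compared groups fitted and 14 when both arrays of weak hybridisation controls were dropped; leaving out 1 array at a time gave 11 to 17. For t = 24 against t = 0, 25 became 8 with that centring and 6 with only the compared groups, and 16 to 23 with 1 array left out. For t = 48 against t = 0, 28 became 15 and 14, and 20 to 24. From t = 8 to t = 24, 26 became 5 and 0, and 15 to 23. The cause was not tested, other than that fitting only the compared groups leaves fewer arrays for the error. Called genes of all kinds under these settings are given below only for the comparison against control. At t = 24 and t = 48 against t = 0 the members' median minus that of all genes was -0.41 and -0.39. From t = 8 to t = 24 it was -0.41. These values were the same in the main fit, with that centring and with only the compared groups.

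The members' median moved for t = 24 against t = 0, to -0.49 with arrays centred on the genes tested and -0.35 without the weak arrays, with -0.44 to -0.35 when 1 array was left out. For t = 48 against t = 0 the same settings gave -0.46, -0.35 and -0.43 to -0.35. From t = 8 to t = 24 centring on the genes tested gave -0.47. This centring shifts all genes alike: the members' median minus that of all genes was -0.41, -0.39 and -0.41, as without it. Called genes of all kinds against control numbered 1107, and 575, 692 and 619 with median centring, no filter and only the compared groups.

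With the replicate number as a block the counts were 19, 23, 25 and 21 in these 4 comparisons. The numbers are not known to pair the arrays. At t = 8, in control cells and from t = 24 to t = 48 the count was 0 in every setting. CDC20, CDCA5, CDCA8 and PLK1 passed against control in all 19 alternatives. With 1 array left out, AURKA, AURKB, CCNB1, CDCA3, CENPA, FOXM1 and UBE2C also passed in all 6 fits, BUB1 in 4 and CCNB2 in 3. Other calls were less stable: BIRC5, CDC25C, PTTG1 and TTK passed in 2 of the 6. CENPE, PRC1, TOP2A and TPX2 passed in 1, and CDC25B in 0. Of the 19 alternatives TOP2A passed in 8, and CENPE and PRC1 in 9. INCENP, at 42.1 to 72.8, was the member nearest to the array medians of 18.1 to 22.6.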
